A study of Mus musculus with 8 samples.

Results

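The 33 genes described here encode the enzymes of glycolysis, the transporters that carry glucose and lactate across the cell membrane, the factors of the hypoxia response and 5 classic targets of that response. They were chosen by name from what they are known to do, out of 24028 genes in the deposited tables. Earlier results of these data were known when they were chosen, so their shares beside all genes are descriptions and not independent tests. All 33 were present, and all 33 passed the filter on low counts that kept 14575 genes for testing. Their RNA was measured in 8 tumours that arose from TRAMP-C2 cells, a cultured line of mouse prostate adenocarcinoma, after injection into the dorsolateral prostate of male C57BL/6 hosts with an intact immune system. The aged group is 4 tumours from hosts of 20 to 24 months (19 injected), and the young group is 4 tumours from hosts of 4 months (20 injected). All were harvested 30 to 45 days after injection, and no tumour received a treatment beyond the injected cells. Each tumour came from a mouse of its own and is called by its group and mouse number. TRAMP-C2 is 1 cell line, so both host groups received cells of the same line, and the labels give no batch. The comparison asks how host age relates to the RNA levels of the tumour as a whole.

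Glycolysis splits glucose into pyruvate in the cytosol and yields ATP without oxygen. Cells with little oxygen, and many tumour cells even with oxygen, turn most of that pyruvate into lactate and export it. The hypoxia-inducible factors (HIF) are transcription factors whose alpha subunit is hydroxylated by oxygen-dependent prolyl hydroxylases and then destroyed through the von Hippel-Lindau (VHL) protein, so the subunit accumulates when oxygen is scarce. Much of this control acts on the protein, which RNA counts do not measure. HIF binds short hypoxia response elements and switches on most glycolytic genes together with its own feedback inhibitors.

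The libraries held 27.1 M to 35.7 M fragments, and the lowest count of any of the 33 genes in any tumour was 61. Levels are given in CPM, the fragment count per M fragments of the library, as deposited, and fold changes as aged minus young on the log2 scale after TMM scaling, with factors of 0.948 to 1.04. An error after a fold change is the standard error of the fit, and an error after a mean is the SD over 4 tumours. The tumours hold cancer and host cells together, so fewer cells of a type and less RNA per cell cannot be told apart. Several libraries stood apart in transcripts of other tissues. The summed level of 3 seminal vesicle secretory genes (Svs2, Svs4, Svs5) was 21240 CPM in aged 50 and at most 17.1 CPM in the other aged tumours, and it was 31890 CPM in young 36 and at most 5.25 CPM in the other young tumours. The sum of 5 prostate secretory genes, Spink1 among them, was 3201 CPM in aged 50 and 34.6 to 153 CPM in the other aged tumours. It was 3661 CPM in young 37 and 913 CPM in young 36, with 2.63 and 19.9 CPM in the remaining young tumours. The members of this list went different ways. In young 37 Spink1 alone stood at 3580 CPM and Pbsn at 3.66 CPM, while in aged 50 Pbsn stood at 2419 CPM and Spink1 at 0.701 CPM. The sum of 8 skeletal muscle genes was 202 CPM in aged 46 and 181 CPM in aged 51. It was 60.4 and 96.0 CPM in the other aged tumours and 68.6 to 137 CPM in the young tumours. Eno3 made 192 CPM of the sum in aged 46 and 44.1 CPM in aged 51. The adult fast myosins Myh1 and Myh4 stood at 26.8 and 15.2 CPM in aged 51, against at most 1.21 and 0.52 CPM elsewhere. The sum of 4 fibroblast genes, Col1a1 and Dcn among them, was 4613 CPM in aged 46, 7672 to 10560 CPM in the other aged tumours and 7903 to 14580 CPM in the young tumours. The labels call the line epithelial. Of 4 epithelial genes, the keratin Krt8 stood at 21.5 to 118 CPM in aged and 30.7 to 124 CPM in young tumours, and the surface marker Epcam at 8.67 to 69.4 CPM in aged and 0.70 to 52.5 CPM in young tumours.

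No gene of the 33 differed between the host groups after adjustment over all genes tested. Their adjusted p-values in edgeR's quasi-likelihood test were 0.923 to 0.997, and of all 14575 genes 0 (0.0%) were called, the smallest adjusted p being 0.427. DESeq2 called 43 genes (0.295%) and limma voom 9 genes (0.0617%), and none of the 33 was among them. Before adjustment, 4 of the 33 had a p under 0.05, all with lower values in aged tumours, where 2.66% of all genes fell in that class. None was in the opposite class, which held 2.34% of all genes, and 4.99% of all genes passed in either direction. The 4 genes were Slc2a1, Slc16a3, Hk2 and Hif1a, which encode the main glucose importer, a lactate exporter, the inducible hexokinase and the alpha subunit of HIF. Hk2 alone had groups that did not overlap. It lay below every young tumour in every aged one, as did 1.95% of all genes, while 1.45% of all genes lay wholly above in aged tumours.

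Of the 33 fold changes 21 were negative (63.6%), against 44.7% of all genes, and their median was -0.10, against 0.03 over all genes. The negative values were not spread evenly over the roles. All 4 transporters and all 5 HIF targets had negative fold changes, with medians of -0.67 and -0.61. The 10 genes of upper glycolysis had a median of -0.06, the 6 of lower glycolysis 0.02 and the 3 of pyruvate use 0.15. Without aged 46, 29 of the 33 were negative. Without aged 50 and young 36, 15 were, and the median was then 0.02. Without aged 50, aged 51 and young 36, 13 were negative and the median was 0.12.

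**Figure D1:**
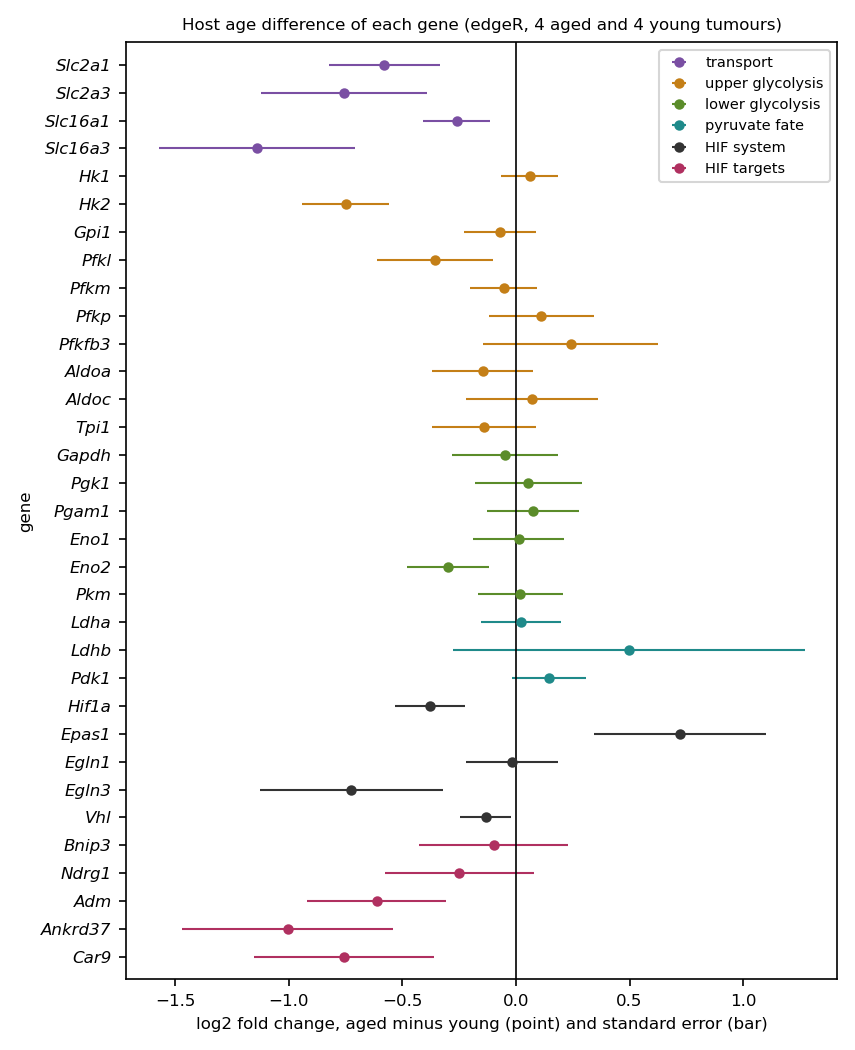
Log2 fold change, aged minus young, of the 33 genes grouped by role, each point with a bar of 1 standard error of the edgeR fit, with 0 marked. The transporters and HIF targets all lie at negative values, Hk2 stands at -0.75, and most enzymes of glycolysis lie close to 0.

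The mean of each of the 4 glucose and lactate transporters was lower in the aged group, with groups that overlapped, and none passed the adjusted test. Slc2a1 encodes GLUT1, the carrier that brings glucose into most cells (chr4:119108745-119137330, GRCm38). It stood at 117, 86.5, 59.3 and 60.7 CPM in aged 46, 47, 50 and 51, against 143, 127, 114 and 105 CPM in young 36, 37, 40 and 43. Aged 46 alone reached into the young range. The means were 80.9 ± 27.2 CPM in the aged group and 122 ± 16.4 CPM in the young group, a fold change of -0.58 ± 0.24, with an unadjusted edgeR p of 0.0417. It was -0.33 without aged 50 and young 36 and -0.13 without aged 51 as well.

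Slc16a3 encodes MCT4, which exports lactate from glycolytic cells (chr11:120948484-120959000). Its values were 11.6, 18.8, 12.01 and 3.24 CPM in aged 46, 47, 50 and 51, against 28.7, 18.5, 33.2 and 19.7 CPM in young 36, 37, 40 and 43. Aged 47 lay just above the lowest young tumour, and the other aged tumours lay below all young ones. The fold change was -1.14 ± 0.43, the most negative of the 33, with an unadjusted edgeR p of 0.0272. It was -0.84 without aged 51 and -0.62 without aged 50, aged 51 and young 36. The other lactate carrier, Slc16a1 (MCT1), spanned 123 to 147 CPM in aged and 128 to 196 CPM in young tumours, a fold change of -0.26 ± 0.15 that was -0.16 without young 43. Slc2a3 encodes GLUT3, a glucose carrier of high affinity that neurons and leukocytes use. It spanned 10.99 to 26.8 CPM in aged and 23.3 to 65.6 CPM in young tumours, and its fold change of -0.76 ± 0.36 was -0.32 without young 43, the highest of them.

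**Figure D2:**
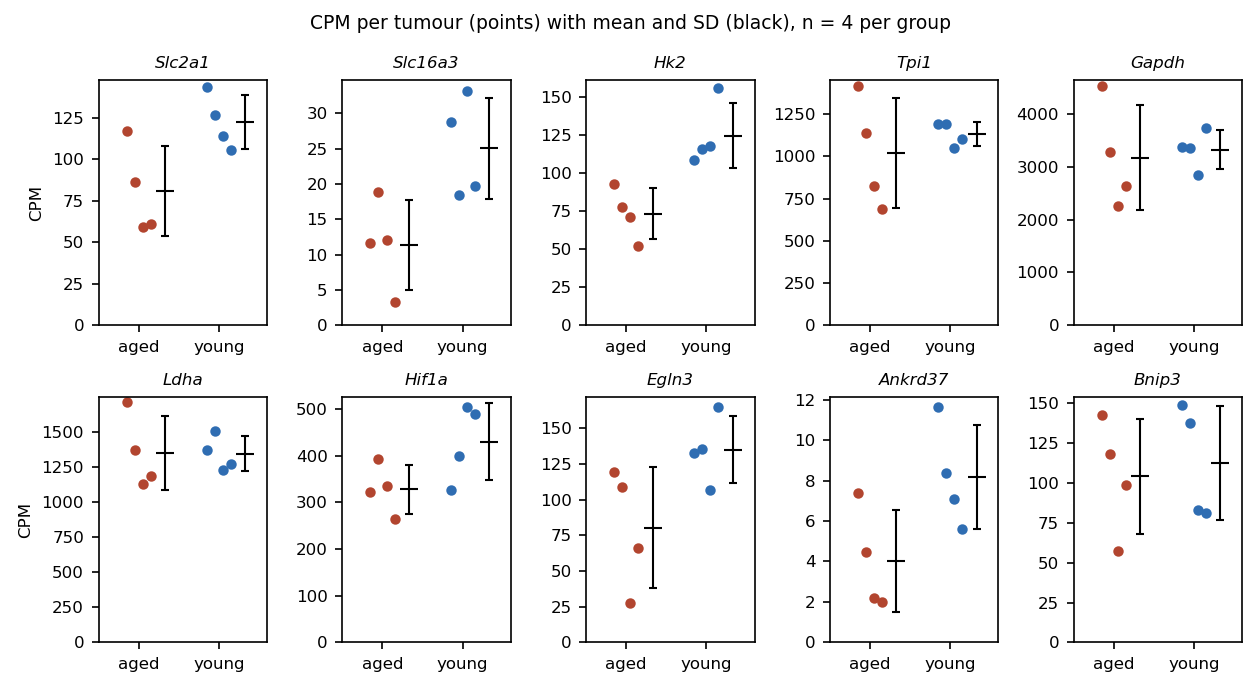
CPM of 10 of the genes in each tumour, aged left and young right, points within a group in order of mouse number, with the group mean and SD in black (n = 4 each). Hk2 shows 4 aged points below all 4 young points, at 51.9 to 93.1 against 109 to 156 CPM, while Tpi1, Gapdh and Ldha show aged points on either side of the young ones.

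Hk2 was the member with the smallest p. It encodes hexokinase 2, which traps glucose in the cell by phosphorylation and is the inducible form of the enzyme, bound to mitochondria in many tumours (chr6:82725025-82774454). Its levels were 93.1, 77.7, 71.2 and 51.9 CPM in aged 46, 47, 50 and 51, against 109, 116, 118 and 156 CPM in young 36, 37, 40 and 43. Every aged tumour lay below every young one. The means were 73.5 ± 17.04 CPM in the aged group and 125 ± 21.4 CPM in the young group, and the fold change was -0.75 ± 0.19 with an unadjusted edgeR p of 0.0036. The adjusted p was 0.923 in edgeR, 0.0795 in DESeq2 and 0.0771 in limma voom, the lowest of 18 alternatives whose highest was 0.999. Over all 18 alternative settings the fold change stayed between -0.92 and -0.56. For Hk1, the constitutive hexokinase, the groups overlapped. It spanned 86.2 to 114 CPM in aged and 87.9 to 98.0 CPM in young tumours, with a fold change of 0.06 ± 0.13.

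The other genes of upper glycolysis carry glucose phosphate down to the triose stage. Gpi1 encodes the isomerase that makes fructose phosphate and had a fold change of -0.07 ± 0.16. Pfkl, Pfkm and Pfkp encode the liver, muscle and platelet forms of phosphofructokinase, the main control point of the pathway, and their fold changes were -0.36 ± 0.26, -0.05 ± 0.15 and 0.11 ± 0.23. That of Pfkl was -0.17 without aged 51, -0.63 without aged 46 and 0.037 without aged 50, aged 51 and young 36. Pfkfb3 makes the sugar bisphosphate that activates phosphofructokinase and is a HIF target. It spanned 35.5 (aged 46) to 179 CPM (aged 50) in aged tumours but 74.4 to 88.6 CPM in young ones, and its fold change of 0.24 ± 0.39 changed sign without aged 50 and young 36, to -0.22. Aldoa and Aldoc encode aldolases that cleave the bisphosphate into trioses, with fold changes of -0.15 ± 0.22 and 0.07 ± 0.29. Tpi1, triosephosphate isomerase, was the most abundant of the upper enzymes per kilobase of transcript. Tpi1 stood at 1416, 1139, 827 and 690 CPM in aged 46, 47, 50 and 51, against 1194, 1192, 1047 and 1101 CPM in young 36, 37, 40 and 43. The young tumours lay inside the aged range, and the fold change was -0.14 ± 0.23.

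In lower glycolysis, which harvests ATP, the group means lay close to each other for every gene but Eno2. Gapdh oxidises the triose and was the most abundant of the 33 per kilobase, with a median of 2222 FPKM over the 8 tumours, and it ranked 11 of 14575 tested genes by median CPM. It stood at 4530, 3288, 2250 and 2639 CPM in aged 46, 47, 50 and 51, against 3376, 3360, 2839 and 3745 CPM in young 36, 37, 40 and 43. The aged tumours held both the highest and the lowest value, and the fold change was -0.05 ± 0.23. Pgk1, the kinase that makes the earliest ATP of the pathway, had a fold change of 0.05 ± 0.24, and the mutase Pgam1 0.07 ± 0.20. The enolases Eno1 (widely expressed) and Eno2 (typical of neurons) had fold changes of 0.01 ± 0.20 and -0.30 ± 0.18, and the pyruvate kinase gene Pkm 0.02 ± 0.19. Per kilobase, Tpi1, Ldha, Pgk1 and Pkm followed Gapdh, with medians of 699.5, 685, 611 and 551 FPKM whose ranges over the tumours overlapped each other.

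At the pyruvate branch, lactate dehydrogenase makes lactate and pyruvate dehydrogenase feeds the mitochondria. Ldha encodes the muscle-type subunit that dominates in glycolytic cells. It stood at 1715, 1371, 1129 and 1187 CPM in aged 46, 47, 50 and 51, against 1369, 1509, 1230 and 1273 CPM in young 36, 37, 40 and 43. The groups overlapped throughout, and the fold change was 0.02 ± 0.18. Ldhb, the heart-type subunit, was scarce and uneven. It stood at 25.9 and 31.3 CPM in aged 47 and aged 50 against 2.97 and 3.77 CPM in aged 46 and aged 51, and at 24.8 CPM in young 40 against 6.10 to 7.50 CPM in the other young tumours. Aged 47, aged 50 and young 40 were also the highest of the 8 tumours in Myh11, the smooth muscle myosin, with 64.2, 241 and 172 CPM against at most 45.6 CPM elsewhere. The part of smooth muscle in the Ldhb values was not tested. Pdk1, a kinase that shuts off pyruvate dehydrogenase and is a HIF target, spanned 64.1 to 91.4 CPM in aged and 67.6 to 87.7 CPM in young tumours, a fold change of 0.15 ± 0.16.

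**Figure D3:**
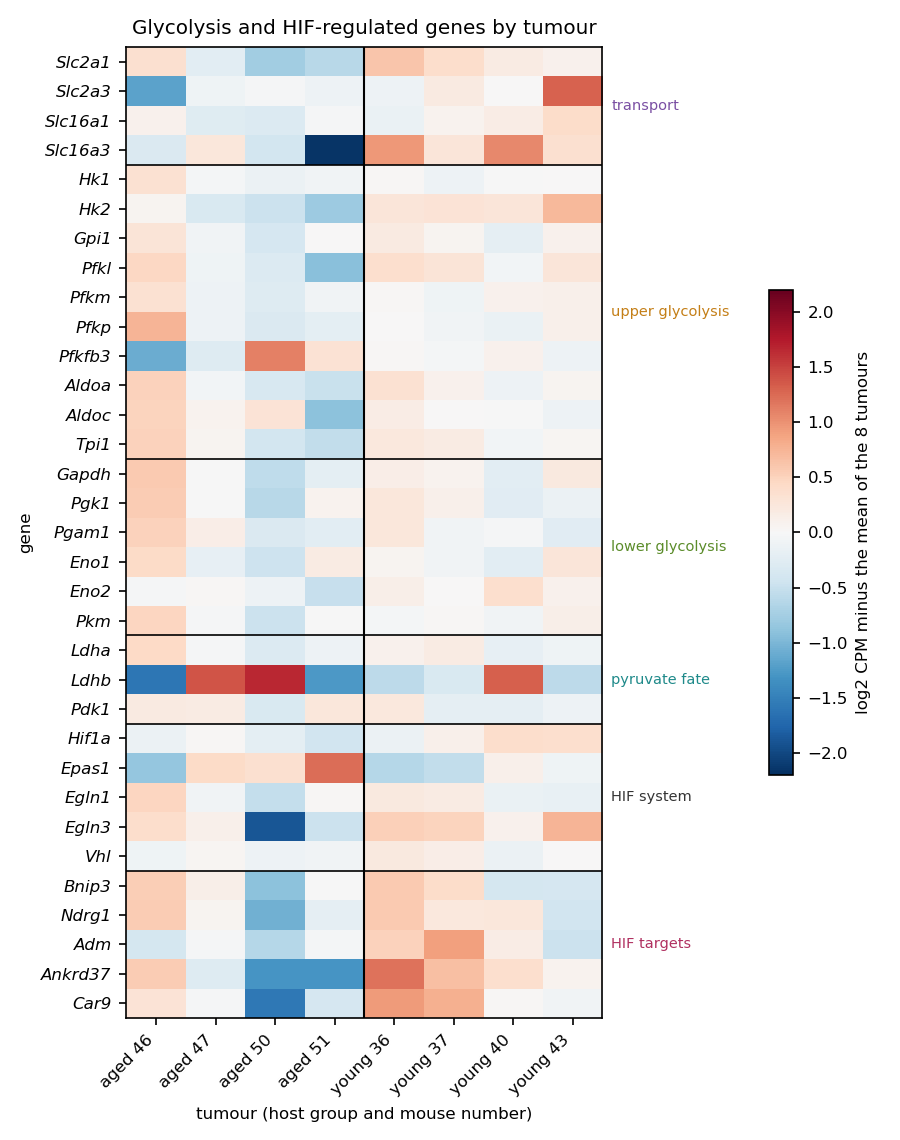
Deviation of each of the 33 genes from its mean over the 8 tumours, on the log2 CPM scale, with tumours as columns (aged left, young right) and genes as rows grouped by role. In the enzyme rows aged 46 lies mostly above the mean and aged 50 and aged 51 mostly below it, while the young columns are paler. In the HIF target rows aged 50 is lowest in 4 of 5 genes.

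The enzymes spread widely within the aged group. Of 18 genes of the glycolytic chain (upper and lower glycolysis with Ldha and Ldhb), the 4 young values lay inside the range of the aged values in 16 (88.9%), against 31.7% of all genes. The log2 SD was larger in the aged group for 18 of 18, against 71.9% of all genes. The highest aged value was a median of 1.86 times the lowest for these 18 genes, and the highest young value 1.24 times the lowest. Over all genes these ratios were 1.66 in aged and 1.44 in young tumours. Aged 46 held the highest value of the 8 tumours in 14 of the 18 (77.8%), against 11.8% of all genes, and the lowest value fell in aged 51 for 9 genes, in aged 50 for 7 and in aged 46 for the other 2. By the median deviation from the mean of the 8 tumours, on the log2 scale, the 18 genes stood at 0.45 in aged 46, -0.04 in aged 47, -0.33 in aged 50 and -0.21 in aged 51. In young 36, 37, 40 and 43 they stood at 0.14, 0.02, -0.07 and 0.07. The labels give all 4 aged hosts the same age range. The wide aged range rested on aged 46, mostly at its upper end, and on aged 50 and aged 51, mostly at its lower end. Without aged 46 the young values lay inside the aged range in 4 of 18 genes, against 17.4% of all genes. They did so in 2 genes without aged 50, aged 51 and young 36, against 10.1% of all genes. Leaving out tumours that hold most of the highest or lowest values lowers such a count in any case.

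The sum of all 33 genes took 1.66% of fragments in aged 46, 1.31% in aged 47, 0.979% in aged 50 and 1.08% in aged 51. In young 36, 37, 40 and 43 it took 1.36%, 1.35%, 1.22% and 1.36%. Aged 46 lay above the young range, aged 47 within it, and aged 50 and aged 51 below it. Aged 46 was also the tumour with the lowest sum of 5 macrophage genes, at 827 CPM against 1256 to 1729 CPM in the other aged and 1290 to 1733 CPM in the young tumours. Csf1r, C1qa and Mrc1 were lowest in aged 46, but Adgre1 and Cd68 were lowest in aged 51, at 75.8 and 55.9 CPM against 89.8 and 83.8 CPM in aged 46. In aged 46 the sum of 4 proliferation genes, Mki67 among them, was 701 CPM, against 488 to 699 CPM in the other aged and 480 to 898 CPM in the young tumours. Its sum of 3 erythroid genes was 122 CPM, against 61.1 to 71.5 CPM in the other aged and 45.8 to 85.3 CPM in the young tumours. The part of these cell types in the enzyme levels was not tested. For all 33 genes the lowest of the 8 values was that of an aged tumour, against 59.6% of all genes. It fell in aged 50 for 16 genes, in aged 51 for 12 and in aged 46 for 5.

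The genes of the HIF alpha subunits had fold changes of opposite sign. Hif1a, the alpha subunit that drives most glycolytic targets, stood at 322, 392, 335 and 264 CPM in aged 46, 47, 50 and 51 (chr12:73901324-73947554). In young 36, 37, 40 and 43 it stood at 327, 400, 505 and 488 CPM. Young 40 and young 43 lay well above all aged tumours and young 37 just above them, while young 36 lay within the aged range. The means were 328 ± 52.8 CPM in the aged group and 430 ± 82.7 CPM in the young group, a fold change of -0.38 ± 0.15 with an unadjusted edgeR p of 0.0364. With limma voom it was -0.14, with an unadjusted p of 0.314. Epas1 encodes the HIF alpha subunit typical of endothelium and some stromal cells. It spanned 21.9 to 93.6 CPM in aged and 25.9 to 46.8 CPM in young tumours, and its fold change of 0.72 ± 0.38 was 0.33 without aged 51 and 0.073 without aged 50, aged 51 and young 36. Aged 51, the highest in Epas1, was also the highest in the sum of 6 endothelial genes, at 340 CPM against 187 to 314 CPM in the other aged and 226 to 294 CPM in the young tumours. The members of this list went different ways. Pecam1 and Tek were highest in aged 51, but Cdh5 was highest in young 43, Kdr and Emcn in young 40 and Vwf in aged 47. In aged 51 the sum of 4 adipocyte genes was 493 CPM, against 42.4 to 151 CPM in the other aged and 32.6 to 210 CPM in the young tumours. Fabp4 alone made 398 CPM of the 493 CPM. Adipoq was also highest in aged 51, but Plin1 and Cfd were highest in young 43. The part of endothelial cells and adipocytes in the Epas1 value was not tested.

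Oxygen sensing was represented by Egln1, Egln3 and Vhl. Egln1 encodes the main HIF prolyl hydroxylase and had a fold change of -0.02 ± 0.20. Egln3 is a related hydroxylase that HIF induces as feedback. It stood at 27.3 CPM in aged 50 and 66.5 to 119 CPM in the other aged tumours, against 107 to 165 CPM in the young tumours, a fold change of -0.73 ± 0.40 that was -0.43 without aged 50. Vhl, which encodes the ubiquitin ligase subunit that captures hydroxylated HIF, was the steadiest of this class, at 44.5 to 53.6 CPM in aged and 47.8 to 56.3 CPM in young tumours.

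The 5 classic targets had lower means in aged tumours, with groups that overlapped in each. Bnip3, a mitophagy receptor, was the most abundant of them per kilobase. It stood at 143, 118, 57.6 and 98.6 CPM in aged 46, 47, 50 and 51, against 149, 138, 82.9 and 81.1 CPM in young 36, 37, 40 and 43. Its fold change was -0.10 ± 0.33, and aged 50 was the lowest tumour. Ndrg1, a stress gene linked to differentiation, was also lowest in aged 50, at 68.6 CPM against 114 to 192 CPM in the other aged and 103 to 196 CPM in the young tumours, with a fold change of -0.25 ± 0.33. Adm, the vasodilator peptide adrenomedullin, had a fold change of -0.61 ± 0.31 that was -0.37 without young 37.

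Ankrd37, a small ankyrin repeat gene, spanned 2.02 to 7.40 CPM in aged and 5.60 to 11.6 CPM in young tumours. Its fold change was -1.01 ± 0.46, with an unadjusted edgeR p of 0.0584. Car9 encodes carbonic anhydrase IX, a surface enzyme that handles the acid of glycolytic cells and is widely used as a marker of hypoxia. It spanned 3.59 to 12.2 CPM in aged and 10.1 to 19.2 CPM in young tumours, with a fold change of -0.76 ± 0.40. These values depended on which tumours were included. Young 36 was the highest of all tumours in 4 of the 5 targets and aged 50 the lowest in 4. Both carried seminal vesicle transcripts, and the part of those transcripts in the target levels was not tested. Leaving out a high young and a low aged tumour shrinks a negative fold change in any case. Without aged 50 and young 36 the fold change of Ankrd37 was -0.54 and that of Car9 -0.30. Without aged 51 as well they were -0.19 and -0.15. On the median deviation of the 5 targets, aged 46 stood at 0.54 and aged 50 at -1.06 on the log2 scale, against -0.37 (young 43) to 0.67 (young 37) in young tumours. Bnip3 and Ndrg1 had positive fold changes, of 0.31 and 0.12, without aged 50 and young 36. Each group thus held tumours with high and with low target levels.

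The start regions of these genes were searched for the letters of the hypoxia response element, ACGTG or GCGTG on either strand (CACGT and CACGC on the other), with overlapping matches counted as 1 site. The windows reach from 250 bases before to 50 bases after the start and come from RefSeq tables of GRCm38.p6. A window was found for 30 of the 33 genes, all but Slc2a3, Epas1 and Ndrg1. Some genes have several windows, for several starts. The window listed at the top for a gene held at least 1 site in 23 of 30 (76.7%), against 43.8% of all genes with a window, and 3 or more in 8 of 30, against 6.68%. With any window of a gene counted, 26 of 30 held a site, against 46.7% of all genes, and 10 held 3 or more, against 7.5%. The 6 windows shown are those listed at the top for their gene. They set 4 genes with low fold changes (Hk2, Slc2a1, Slc16a3, Ankrd37) beside 2 abundant enzymes with fold changes near 0 (Ldha, Tpi1), and were chosen after the values were seen. The letters run 5′ to 3′ on the strand of the gene, with the matches in capitals. Hk2 is at chr6:82774405-82774704 on the minus strand, Slc2a1 at chr4:119108495-119108794 on the plus strand and Slc16a3 at chr11:120948817-120949116 on the plus strand. Ankrd37 is at chr8:45999801-46000100 on the minus strand, Ldha at chr7:46845554-46845853 on the plus strand and Tpi1 at chr6:124814109-124814408 on the minus strand.
Hk2: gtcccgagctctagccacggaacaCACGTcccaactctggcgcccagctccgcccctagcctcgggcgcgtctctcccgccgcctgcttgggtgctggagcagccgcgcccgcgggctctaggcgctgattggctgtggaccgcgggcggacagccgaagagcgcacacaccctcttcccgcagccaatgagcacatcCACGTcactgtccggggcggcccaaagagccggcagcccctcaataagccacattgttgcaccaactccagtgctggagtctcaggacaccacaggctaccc
Slc2a1: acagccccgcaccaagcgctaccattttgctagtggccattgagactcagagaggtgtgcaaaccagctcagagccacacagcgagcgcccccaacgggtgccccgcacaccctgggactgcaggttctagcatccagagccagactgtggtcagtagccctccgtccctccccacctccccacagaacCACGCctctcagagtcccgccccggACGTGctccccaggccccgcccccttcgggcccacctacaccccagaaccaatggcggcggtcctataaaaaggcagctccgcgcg
Slc16a3: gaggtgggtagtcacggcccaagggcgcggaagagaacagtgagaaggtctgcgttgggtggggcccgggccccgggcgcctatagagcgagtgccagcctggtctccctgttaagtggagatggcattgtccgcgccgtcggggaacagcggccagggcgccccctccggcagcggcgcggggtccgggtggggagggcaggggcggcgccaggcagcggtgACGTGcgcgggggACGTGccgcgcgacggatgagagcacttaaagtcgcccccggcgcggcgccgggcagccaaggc
Ankrd37: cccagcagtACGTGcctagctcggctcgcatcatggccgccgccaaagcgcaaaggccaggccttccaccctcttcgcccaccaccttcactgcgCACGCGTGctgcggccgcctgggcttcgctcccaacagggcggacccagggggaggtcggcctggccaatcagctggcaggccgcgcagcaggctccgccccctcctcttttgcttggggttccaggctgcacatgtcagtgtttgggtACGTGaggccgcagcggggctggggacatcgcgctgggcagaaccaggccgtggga
Ldha: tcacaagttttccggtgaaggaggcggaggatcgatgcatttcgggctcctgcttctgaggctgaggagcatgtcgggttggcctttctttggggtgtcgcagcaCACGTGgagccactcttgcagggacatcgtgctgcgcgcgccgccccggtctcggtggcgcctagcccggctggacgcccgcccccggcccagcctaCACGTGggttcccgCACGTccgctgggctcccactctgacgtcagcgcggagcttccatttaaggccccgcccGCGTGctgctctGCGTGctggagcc
Tpi1: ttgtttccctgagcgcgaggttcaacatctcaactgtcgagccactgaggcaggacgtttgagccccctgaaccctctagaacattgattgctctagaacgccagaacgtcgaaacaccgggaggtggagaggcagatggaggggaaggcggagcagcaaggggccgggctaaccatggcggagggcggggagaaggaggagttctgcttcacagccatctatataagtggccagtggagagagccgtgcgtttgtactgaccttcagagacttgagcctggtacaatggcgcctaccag
Hk2, Slc2a1 and Slc16a3 each held 2 sites and Ankrd37 held 3. Ldha held 5, with a fold change of 0.02, and Tpi1 held 0. A match is a description of the letters and not a test of binding.

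Where an enzyme or carrier exists in several forms, the share of each form was taken from the deposited FPKM values, which are scaled by transcript length, and no test was made on it. Hk2 made up 52.7%, 52.6%, 51.7% and 45.2% of the summed Hk1 and Hk2 level in aged 46, 47, 50 and 51, against 61.5%, 64.3%, 62.2% and 68.9% in young 36, 37, 40 and 43. Every aged tumour lay below every young one, with means of 50.6% ± 3.60 in aged and 64.2% ± 3.35 in young tumours. Among the phosphofructokinases, Pfkp made up 30.8%, 26.0%, 25.9% and 31.5% in aged 46, 47, 50 and 51, against 23.0%, 22.9%, 24.4% and 24.8% in young 36, 37, 40 and 43. All aged shares of Pfkp were above all young ones, although its own CPM overlapped between the groups. A share also moves with the other genes in its sum, and the fold changes were 0.11 ± 0.23 for Pfkp and -0.36 ± 0.26 for Pfkl. The Hk2 share likewise holds the Hk2 values already given. Shares in the families listed below overlapped between the groups, and no rate over further gene families was computed. Pfkl, the liver form, made up 46.7% ± 6.34 in aged and 53.9% ± 3.35 in young tumours, with overlap.

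**Figure D4:**
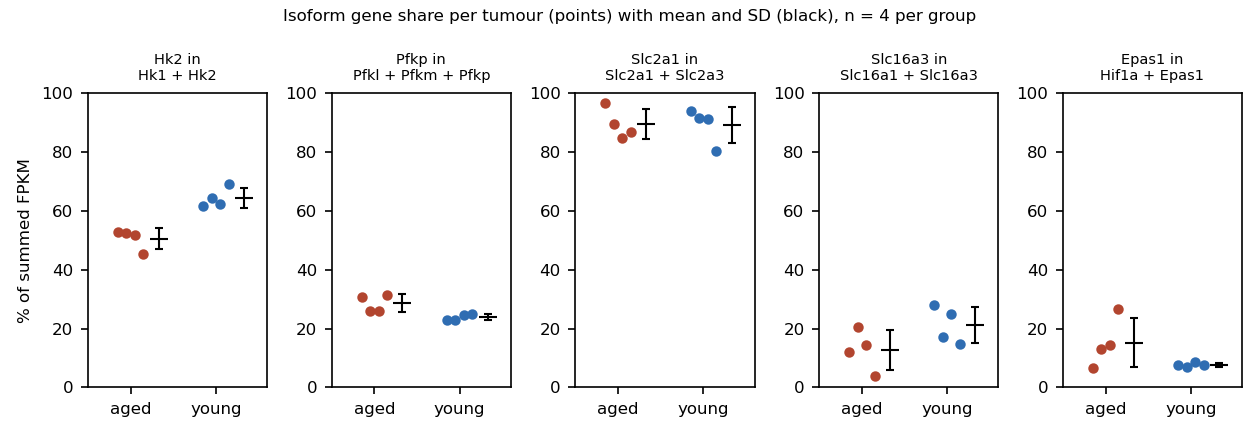
Share of each form in the summed FPKM of its gene family, in percent, per tumour, aged left and young right, with the group mean and SD in black (n = 4 each). The Hk2 share lies at 45.2 to 52.7% in aged and 61.5 to 68.9% in young tumours, and the Epas1 share of Hif1a plus Epas1 reaches 26.7% in aged 51.

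For other families 1 form dominated in both groups. Ldha made up at least 96.0% of Ldha plus Ldhb in every tumour, Aldoa at least 99.0% of the aldolase pair and Eno1 at least 93.1% of Eno1 plus Eno2. Slc2a1 held 84.8 to 96.4% of Slc2a1 plus Slc2a3 in aged and 80.2 to 94.0% in young tumours. Slc16a3 held 11.9%, 20.4%, 14.3% and 3.92% of the 2 lactate carriers in aged 46, 47, 50 and 51, against 27.9%, 17.1%, 25.0% and 14.8% in young 36, 37, 40 and 43. Epas1 held 6.52%, 13.2%, 14.5% and 26.7% of Hif1a plus Epas1 in those aged tumours, against 6.82 to 8.67% in the young ones, so that aged 46 lay below the young range and the other aged tumours above it.

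Reads of several of these genes cannot be placed with certainty, since glycolytic genes have many near-identical copies in the mouse genome. In GENCODE vM21, 82.5% of the 50-base windows of the Gapdh transcript also occur in transcripts of other genes, 72.2% for Eno1, 68.0% for Pgk1, 41.5% for Pgam1 and 34.4% for Pkm. For 18 of the 33 genes, Hk2, Slc2a1 and Slc16a3 among them, no window is shared. Eno1b, a near-identical copy of Eno1, was listed at 445, 349, 277 and 369 CPM in aged 46, 47, 50 and 51, against 360, 375, 328 and 420 CPM in young 36, 37, 40 and 43. That is 1.57 to 1.82 times Eno1. How reads that match both were counted is not known, and if they were counted at each gene the sum holds them more than once. The sum of Eno1 and Eno1b was 719, 548, 442 and 604 CPM in the aged group and 578, 581, 520 and 686 CPM in the young group, in the same order, and the groups overlapped. Exons of 13 of the 33 genes overlap a gene on the other strand and those of 3 a gene on the same strand. No source used here gives the strand setting of the count. If strand was not used, reads from such an overlap cannot be assigned to either gene.

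Other genes of the pathway, listed by role, were read beside the 33. Of 42 other genes of glycolysis and pyruvate use, 34 were tested, 12 with negative and 22 with positive fold changes (median 0.15). Adpgk, an ADP-dependent glucokinase, had lower values in all aged than in all young tumours (30.6 to 43.4 against 46.5 to 53.4 CPM), a fold change of -0.30 ± 0.13. Pdha1, a subunit of pyruvate dehydrogenase, had higher values in all aged tumours (144 to 171 against 124 to 139 CPM), a fold change of 0.24 ± 0.10. Pdk4, a kinase that blocks pyruvate dehydrogenase in fasting and fat use, spanned 0.341 to 15.8 CPM in aged and 0.347 to 1.59 CPM in young tumours, a fold change of 2.80 ± 0.96 that was 1.55 without aged 51. Its highest value was in aged 51, the tumour with the highest sum of 4 adipocyte genes, a sum made mostly of Fabp4. Of that list, Plin1 and Cfd were highest in young 43. Aged 51 was also the highest tumour in the skeletal muscle genes Ckm, Acta1, Myh1, Myh4, Pgam2, Tnnt3 and Mylpf, while Eno3 was highest in aged 46. The part of adipocytes and of skeletal muscle in the Pdk4 value was not tested. Of 9 genes of the pentose phosphate branch, 8 were tested, 3 with negative and 5 with positive fold changes (median 0.02). The 3 with the smallest p, Rpe, Rpia and H6pd, had fold changes of -0.30 ± 0.18, -0.12 ± 0.11 and -0.21 ± 0.21. Of 15 other HIF regulators 3 were negative and 12 positive (median 0.06). Among them Rbx1, Arnt2 and Ep300 had fold changes of 0.25 ± 0.16, 0.96 ± 0.77 and 0.30 ± 0.27. In edgeR's test 0 genes of these lists passed after adjustment.

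Other HIF targets, like the 5 classic ones, mostly had negative fold changes. Of 38 tested, 27 had negative fold changes (71.1%, against 44.7% of all genes), with a median of -0.19. At an unadjusted edgeR p under 0.05, 6 had lower values in aged tumours, against 2.66% of all genes, and 1 had higher values, against 2.34%. In these 7 the groups did not overlap, as in 1.95% of all genes on the lower and 1.45% on the higher side. Aged 50 held the lowest value in 16 of the 38 (42.1%), against 9.27% of all genes, and young 36 the highest in 8 (21.1%), against 3.18%. Without these tumours, which carried seminal vesicle transcripts, 24 of the 38 were negative, against 48.5% of all genes, and without aged 51 as well 22 were, against 51%. P4ha1 and P4ha2 encode the alpha subunits of collagen prolyl hydroxylase. P4ha1 stood at 177, 174, 162 and 151 CPM in aged 46, 47, 50 and 51, against 302, 256, 274 and 273 CPM in young 36, 37, 40 and 43. Its fold change was -0.73 ± 0.11, with an adjusted p of 0.738 in edgeR, and it was called by DESeq2 (3.5e-06) and limma voom (0.0404), the range over 18 alternatives being 3.5e-06 to 0.999. P4ha2 spanned 56.8 to 77.9 CPM in aged and 96.9 to 117 CPM in young tumours, a fold change of -0.69 ± 0.14 with an adjusted p of 0.738 in edgeR and 0.00343 in DESeq2 (up to 0.999 over the alternatives). Bhlhe40, a repressor that hypoxia induces, had a fold change of -0.64 ± 0.18.

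The 4 remaining genes of that group were chosen after their values were seen. Vegfa, the main signal for vessel growth, spanned 38.7 to 67.8 CPM in aged and 70.3 to 87.7 CPM in young tumours, with an adjusted p of 0.923 in edgeR, and limma voom called it. Ero1l, an oxidase of protein folding, had a fold change of -0.68 ± 0.27, and the collagen lysyl hydroxylase Plod2 -0.33 ± 0.14. Edn1, the vasoconstrictor peptide endothelin, was the exception, at 4.07 to 11.1 CPM in aged and 1.87 to 3.66 CPM in young tumours.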

How the data were processed

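RNA of 8 tumours was made into TruSeq mRNA libraries from 1 µg of total RNA each and read as 50 bp paired ends, per the labels' protocols. TopHat2 2.0.12, Picard 2.7.1, bcl2fastq and the build GRCm38 (mm10) are listed in the submitters' processing notes. The counting program, its annotation and its use of strand were not given in the sources used here. The authors deposited, per the file headers, fragment counts, FPM and FPKM for 24028 genes. The deposited FPM is the count per M fragments of the tumour's total (CPM), and the deposited FPKM is that value per kilobase. 27 symbols that had become dates were restored through their Entrez numbers.

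The count table was fitted in R 4.3.3 with edgeR 4.0.16 (filterByExpr with a minimum count of 10 and a minimum total of 15, TMM, robust quasi-likelihood fit), with host age as the only term. Benjamini-Hochberg adjustment ran over 14575 genes, with a threshold of 0.05. A standard error is the fold change over the root of its F statistic. DESeq2 1.42.0, limma 3.58.1 (voom with sample weights), other scalings and filters, and tumours left out were the alternatives. The procedure was tested on simulated counts. At the depths of 27.1 to 35.7 M fragments, a count of 3 fragments equals 0.084 to 0.111 CPM, which allows for counting error alone.

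The genes and lists were chosen with earlier results of these data known. All 33 were accounted for: values in each tumour are given for those with an unadjusted p under 0.05 or no overlap and for the most abundant of each role per kilobase, others by range or fold change, and the 3 with the smallest p of each other list are named. The labels say that each tumour came from another mouse, and give no batch.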

Additional observations from a re-analysis of the deposited data

Results flagged for a closer look

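Each gene was looked at within each host group of 4 tumours for a value that lay far from the others. Of 66 such groups 4 held one, and chance alone gives about 1 in 20. Slc2a3, the gene of GLUT3, had 11 CPM in aged 46, while the other aged tumours had 23.2 to 26.8 CPM. Pdk1, the pyruvate dehydrogenase kinase, had 64.1 CPM in aged 50, while the other aged tumours had 84.8 to 91.4 CPM. Hk2 stood at 156 CPM in young 43, against 109 to 118 CPM in the other young tumours. Ldhb stood at 24.8 CPM in young 40, against 6.10 to 7.50 CPM in the other young tumours.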

How the results depend on the processing

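Of the 33 genes, 14 kept the sign of their fold change over all 18 alternatives and 19 did not. Hk2 had an unadjusted p under 0.05 in all 18. DESeq2 called 43 genes in all and limma voom 9, none of the 33, against 0 in edgeR. With each tumour left out in turn, 19 to 29 of the 33 were negative (21 with all tumours), and 13 without aged 50, aged 51 and young 36. The count of enzyme genes with the young values inside the aged range (16 of 18) was recomputed after seeing the data, and it was 4 to 16 with each tumour left out and 2 without those 3 tumours. The count of negative fold changes among 38 other HIF targets (27), also recomputed after seeing the data, was 24 to 31 with each tumour left out. Signs turned with limma voom for Hk1 (-0.011), Pfkp (-0.052), Pfkfb3 (-0.15), Pgk1 (-0.10), Eno1 (-0.12), Pkm (-0.028), Ldha (-0.06) and H6pd (0.054). With library size alone they turned for Eno1 (-0.013) and Pkm (-0.004), and with upper-quartile factors for Eno1 (-0.004). Without aged 50 and young 36 they turned for Gpi1 (0.084), Pfkm (0.019), Pfkfb3 (-0.22), Aldoa (0.029), Tpi1 (0.01), Gapdh (0.13), Ldhb (-0.24), Egln1 (0.19), Bnip3 (0.31), Ndrg1 (0.12) and Arnt2 (-0.12). Without aged 51 as well they turned for Gpi1 (0.12), Pfkl (0.037), Pfkm (0.084), Pfkfb3 (-0.61), Aldoa (0.24), Tpi1 (0.24), Gapdh (0.28), Egln1 (0.25), Bnip3 (0.42) and Ndrg1 (0.28). With each tumour left out in turn the ranges spanned 0 for Hk1 (-0.059 to 0.11), Gpi1 (-0.19 to 0.028), Pfkm (-0.19 to 0.025), Pfkp (-0.20 to 0.23), Pfkfb3 (-0.23 to 0.50), Aldoc (-0.10 to 0.29), Gapdh (-0.31 to 0.10), Pgk1 (-0.16 to 0.22), Pgam1 (-0.11 to 0.18), Eno1 (-0.15 to 0.14), Pkm (-0.17 to 0.15), Ldha (-0.15 to 0.12), Ldhb (-0.045 to 1.20), Egln1 (-0.21 to 0.12), Bnip3 (-0.32 to 0.12) and Arnt2 (-0.18 to 1.39). The cause was not tested. The shares of enzyme and carrier forms kept their direction when taken from CPM. The lowest count of the 33 genes was 61, above the limit of 3 fragments. No paired analysis was possible because the groups share no mouse numbers.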
